A study of Mus musculus with 24 samples.

Results

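Transcripts of heart muscle were followed through 24 RNA-seq libraries of mouse thoracic aorta. They were Actc1, Mb, Ttn, Myh6, Tnnt2, Tnni3, Myl7, Myl4, Nppa and Sln, 10 of the 25941 genes in the deposited count table. The genes were chosen by symbol, and their values in these data were known at the time. In particular, a library of the rofecoxib group, called rofecoxib 2 here, had been singled out because these transcripts were high in it. Its values are therefore given as a description with no test, and comparisons between groups are given with and without it.

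The mice were adult wildtype males of strain C57BL/6, 10 to 12 weeks old, and all 3 groups ate regular chow for 3 weeks. The 8 celecoxib libraries came from mice whose chow carried 100 mg/kg/day of celecoxib, the 8 rofecoxib libraries from mice given 50 mg/kg/day of rofecoxib, and the 8 control libraries from mice given chow with no added drug. Both drugs are nonsteroidal anti-inflammatory agents selective for cyclooxygenase-2. Aorta was collected in all groups at zeitgeber time 11, in hours after lights on. The drug doses differed, so a celecoxib against rofecoxib value compares these treatments and not the compounds at a matched dose. Each group is described as biological replicates without a label that names the animal, so p-values measure the spread between these samples.

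Cardiac muscle cells shorten when myosin thick filaments pull on actin thin filaments in the sarcomere, and the troponin complex on the thin filament switches this on when calcium is released from the sarcoplasmic reticulum. Atrial and ventricular cells use partly different isoforms of the myosin light chains, and atrial cells also make sarcolipin and natriuretic peptide. The wall of the aorta is built from smooth muscle, which contracts without sarcomeres and with other actin and myosin genes.

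Smooth muscle markers were abundant in every library. The 12 smooth muscle markers summed to 53900 CPM (counts relative to library size, scaled by the TMM normalization) in rofecoxib 2 and to 40330 to 59990 CPM in the other 23 libraries. Library totals lay between 21652432 and 21687906 counts. On the correlation of log2 CPM, rofecoxib 2 had a median r of 0.986 with the other libraries of its group. Rofecoxib 2 was at least 2-fold above the median of the other 23 libraries for 175 of the 14450 genes that passed the filter on low counts and had a median above 0, or 1.21%. In the other libraries the same share ran from 0.111% in rofecoxib 3 to 5.65% in control 6. Rofecoxib 2 was the highest of the 24 libraries for 3.03% of these genes.

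All 10 cardiac genes were highest in rofecoxib 2 and more than 2-fold above the median there. The ratio was ranked over 14440 genes, those that passed the filter on low counts and had a median above 3 counts in the other libraries. Among them Mb was in place 1, Myl7 in place 2, Myh6 in place 3 and Actc1 in place 6. Ttn was in place 7, Tnni3 in place 10, Tnnt2 in place 12 and Myl4 in place 13. Sln, at 69.3 times the median beside 69.2 for Mb, did not pass the filter and was not ranked. These ranks restate how the genes were chosen. The 10 genes together held 12692 counts in rofecoxib 2, against 490 to 1452 in the other libraries, with the highest of those in control 3. Nppa and Sln did not pass the filter on low counts, with all 24 libraries or without rofecoxib 2, and the other 8 passed both times. In bulk tissue, more heart muscle cells and more RNA per cell cannot be told apart.

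**Figure D1:**
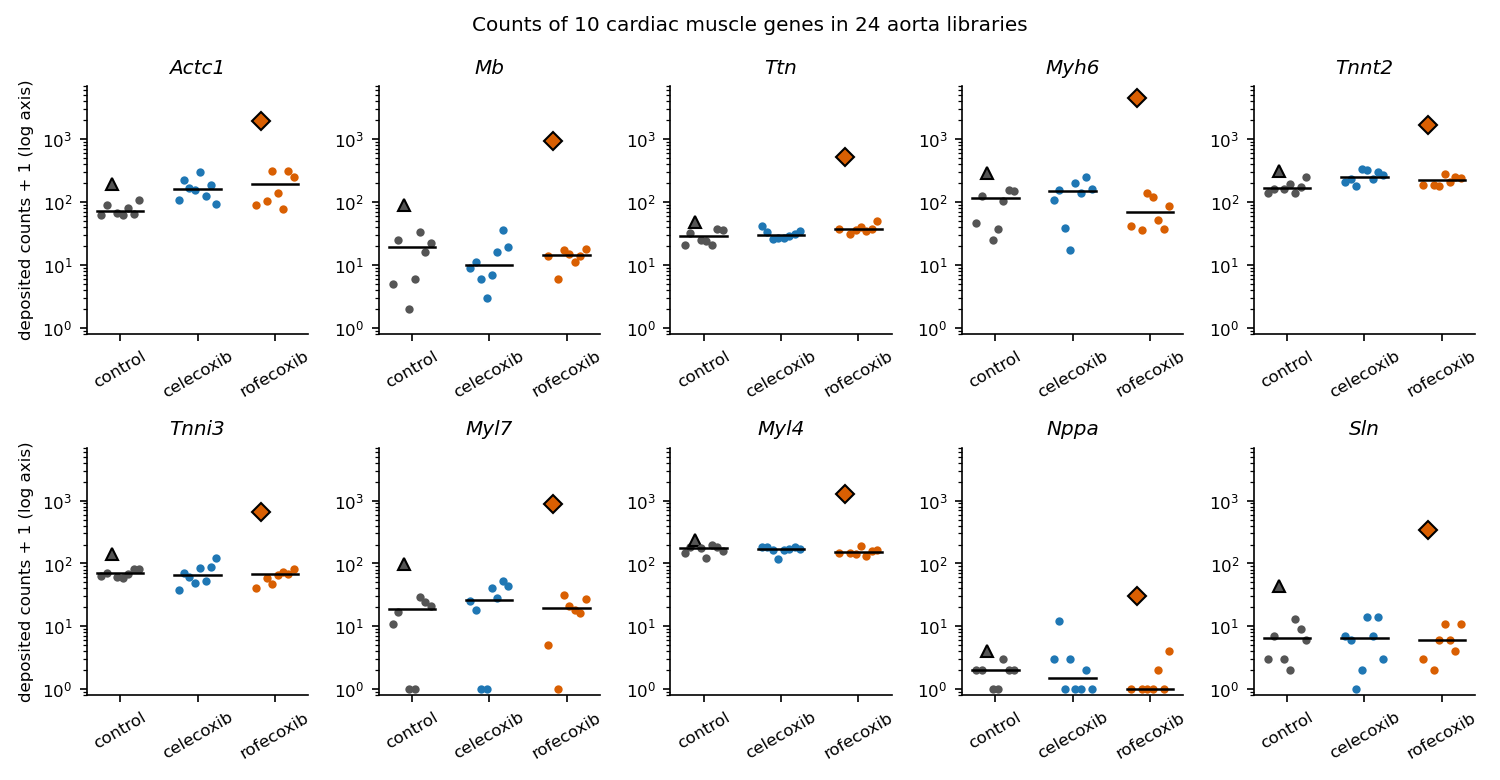
Deposited counts plus 1 of each gene on a log axis, 1 point per library, by group, with bars at the group medians; the diamond is rofecoxib 2 and the triangle control 3. The diamond is the highest point in all 10 panels, and the triangle is the highest of the other 23 in 6 of them.

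Myh6 encodes alpha myosin heavy chain, the main motor of the adult mouse heart, and lies on chromosome 14 from 55560556 to 55585966 (mm9, the build of the count table, for this and all gene positions below). Myh6 had 4450 counts in rofecoxib 2, or 207 CPM. In control it ran from 1.13 CPM through a median of 5.17 to 13.4, in celecoxib from 0.770 through 6.70 to 11.5, and in the other 7 rofecoxib libraries from 1.63 through 2.25 to 6.20. The groups overlapped widely, and in the libraries without rofecoxib 2 the lowest level was in celecoxib 4 and the highest in control 3. The level in rofecoxib 2 was 42.0 times the median of the other 23 libraries, and 92.1 times the median of the other 7 rofecoxib libraries, which were low for this gene.

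Myl7 encodes the regulatory myosin light chain of the atria (chromosome 11, 5796438 to 5798987). It had 890 counts in rofecoxib 2 (41.5 CPM) and a median of 20 counts in the others, a ratio of 45.7. Among those 23 libraries it had no count in celecoxib 3, celecoxib 4, rofecoxib 3, control 4 and control 5, and 98 counts in control 3, so that every group held both libraries at 0 and libraries with counts. A count of 0 allows a true level of up to 3 counts. Myl4 encodes the essential light chain of the atria (chromosome 11, 104411775 to 104457269). Its level was 58.4 CPM in rofecoxib 2, against 5.51 to 10.8 CPM in control, 5.68 to 8.52 in celecoxib and 5.85 to 8.76 in the other rofecoxib libraries. Myl4 was thus present at a similar level in every other library, a pattern unlike Myl7, and its ratio of 7.53 was the lowest of the 9 genes for which a ratio is given.

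Ttn encodes titin, the elastic filament that spans each sarcomere, and runs over chromosome 2 from 76541835 to 76820806. It had 526 counts in rofecoxib 2 (24.5 CPM). In control it had 20 to 47 counts with a median of 27.5, in celecoxib 25 to 40 with a median of 29, and in the other rofecoxib libraries 30 to 48 with a median of 36. Ttn is by far the longest of the genes. Per kilobase of annotated exon its level in rofecoxib 2 was 0.210 CPM, the lowest of the 10 genes, while Myl7 had 70.3, Actc1 55.0, Myh6 30.8 and Mb 28.9 CPM per kilobase.

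Actc1 encodes cardiac alpha actin, the thin filament actin of heart muscle (chromosome 2, 113872816 to 113879486). Actc1 had 1912 counts in rofecoxib 2, or 89.1 CPM, 18.4 times the median of the other 23 libraries. In control it ran from 2.76 CPM through a median of 3.30 to 8.89, in celecoxib from 4.35 through 7.51 to 14.1, and in the other rofecoxib libraries from 3.467 through 6.20 to 14.1. Of the 8 control libraries, 7 lay at or below 4.81 CPM, with control 3 apart at 8.89 CPM. Both drug groups reached higher, although the groups overlapped. Actins share long stretches of sequence, and Acta2, the smooth muscle actin, had 306990 to 486923 counts in the other 23 libraries, so some Actc1 counts may belong to reads of other actins. Over these 23 libraries the log2 levels of Actc1 and Acta2 had a Pearson r of 0.32 and a Spearman rho of 0.36, and r was 0.16 without control 1 and control 6, the libraries farthest from the median for Acta2.

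Tnnt2 encodes cardiac troponin T, which ties the complex to tropomyosin (chromosome 1, 137737250 to 137749039). Tnnt2 stood at 79.2 CPM in rofecoxib 2. It ran from 6.23 through a median of 7.60 to 14.1 CPM in control, from 8.36 through 11.7 to 16.3 in celecoxib, and from 8.11 through 9.41 to 12.5 in the other rofecoxib libraries. The groups overlapped, with the lowest of these levels, from 6.23 to 7.81 CPM, all in control and the next in rofecoxib 4 at 8.11 CPM. Tnni3 encodes cardiac troponin I, the inhibitory subunit (chromosome 7, 4469705 to 4476033). Tnni3 had 667 counts in rofecoxib 2 and 37 to 143 counts in the others, highest in control 3, a ratio of 10.2 to the median.

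Mb encodes myoglobin, the oxygen-binding protein of heart and oxidative skeletal muscle (chromosome 15, 76845717 to 76881302). Mb had 926 counts in rofecoxib 2 and a median of 13 in the others, 69.2 times the median by CPM. The other libraries ran from 1 count in control 4 to 89 in control 3, the widest spread of the 7 genes that had counts in every library. Sln encodes sarcolipin, a small inhibitor of the sarcoplasmic reticulum calcium pump (chromosome 9, 53697856 to 53701853). Sln had 338 counts in rofecoxib 2 and 0 to 43 in the others with a median of 5, a ratio of 69.3. Nppa encodes atrial natriuretic peptide, a hormone of atrial muscle (chromosome 4, 147374629 to 147376390). It had 29 counts in rofecoxib 2 and 29 counts over the other 23 libraries together, of which 11 were in celecoxib 2. Nppa was at 0 in 11 libraries, and no fold is given for it against counts that low.

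The promoters of the 3 genes that held a 10-base muscle motif next to their start sites are printed. They come from RefSeq on GRCm38.p6, a later build than that of the count table. Each window is the 250 bases before a start site, and 9 of the 10 genes matched, with 12 start sites. The motifs of 10 bases were the CArG box bound by serum response factor and the motif of MEF2 factors. A shorter motif, GATAA, is that of GATA factors. Another, CATTCC, is that of TEAD factors. All were searched on both strands and picked with the values of the genes known. Capitals mark the matches, none of which overlap another. The windows are chr11:5898783-5899032 for Myl7, chr2:114052876-114053125 for Actc1 and chr2:76982548-76982797 for Ttn, all on the minus strand and printed 5′ to 3′ toward the gene.
Myl7: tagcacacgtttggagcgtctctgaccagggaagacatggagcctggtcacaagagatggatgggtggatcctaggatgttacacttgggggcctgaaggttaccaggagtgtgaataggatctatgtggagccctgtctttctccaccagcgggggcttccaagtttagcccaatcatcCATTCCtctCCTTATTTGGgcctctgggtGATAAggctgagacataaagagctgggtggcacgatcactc
Actc1: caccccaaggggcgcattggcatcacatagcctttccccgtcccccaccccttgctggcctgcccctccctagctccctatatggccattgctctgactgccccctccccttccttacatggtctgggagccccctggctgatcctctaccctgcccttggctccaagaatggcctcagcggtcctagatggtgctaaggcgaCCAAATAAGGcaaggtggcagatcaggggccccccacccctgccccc
Ttn: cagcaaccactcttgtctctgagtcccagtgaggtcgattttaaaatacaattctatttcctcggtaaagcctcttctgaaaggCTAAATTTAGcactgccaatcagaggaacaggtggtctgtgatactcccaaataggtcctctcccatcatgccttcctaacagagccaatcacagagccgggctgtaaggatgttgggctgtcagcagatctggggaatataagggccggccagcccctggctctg
Myl7 held a TEAD motif, a CArG box that began 61 bases before the start site, and a GATA motif. Actc1 held a CArG box 47 bases before its start, and Ttn a MEF2 motif 166 bases before. Of the 32851 promoter windows searched, 1.467% held a CArG box, 2.92% a MEF2 motif, 22.6% the GATA motif and 12.6% the TEAD motif. The GATA motif was also in the windows of Nppa and Tnnt2, and the TEAD motif in those of Myh6 and Tnnt2. Each of these motifs was thus in 3 of the 12 windows. No motif was in all the genes, and the windows of Tnni3, Myl4 and Mb held none. A match describes the letters and does not show that a factor binds.

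The 10 genes did not vary as a block over the other 23 libraries. Spearman's rho, with the 23 libraries as points, which share their groups and a common depth, was 0.87 for Myh6 with Myl7, 0.81 for Myl7 with Sln, 0.75 for Mb with Myl7, 0.73 for Myl4 with Sln, 0.72 for Myh6 with Sln and 0.71 for Mb with Myh6. For Myh6 with Myl7, Pearson's r on log2 levels was 0.89 and 0.84 without control 4 and celecoxib 4, the libraries farthest from the median of Myh6. Actc1 and Tnnt2 moved with each other (rho 0.61) more than with these genes, at 0.29 for Actc1 with Myh6 and 0.34 for Tnnt2 with Myh6, and Tnnt2 with Myl4 had a rho of 0.06. These are descriptions with no test, and the low counts of Mb, Myl7 and Sln limit them. Tnnt2 also followed the summed level of 24 skeletal muscle genes, with a rho of 0.67, against 0.17 for Myh6. Casq1 held most of that sum, at a median of 120.6 CPM over the 23 libraries beside 144.4 for the sum. The sum is thus mostly a measure of Casq1, and its part in the result was not tested.

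**Figure D2:**
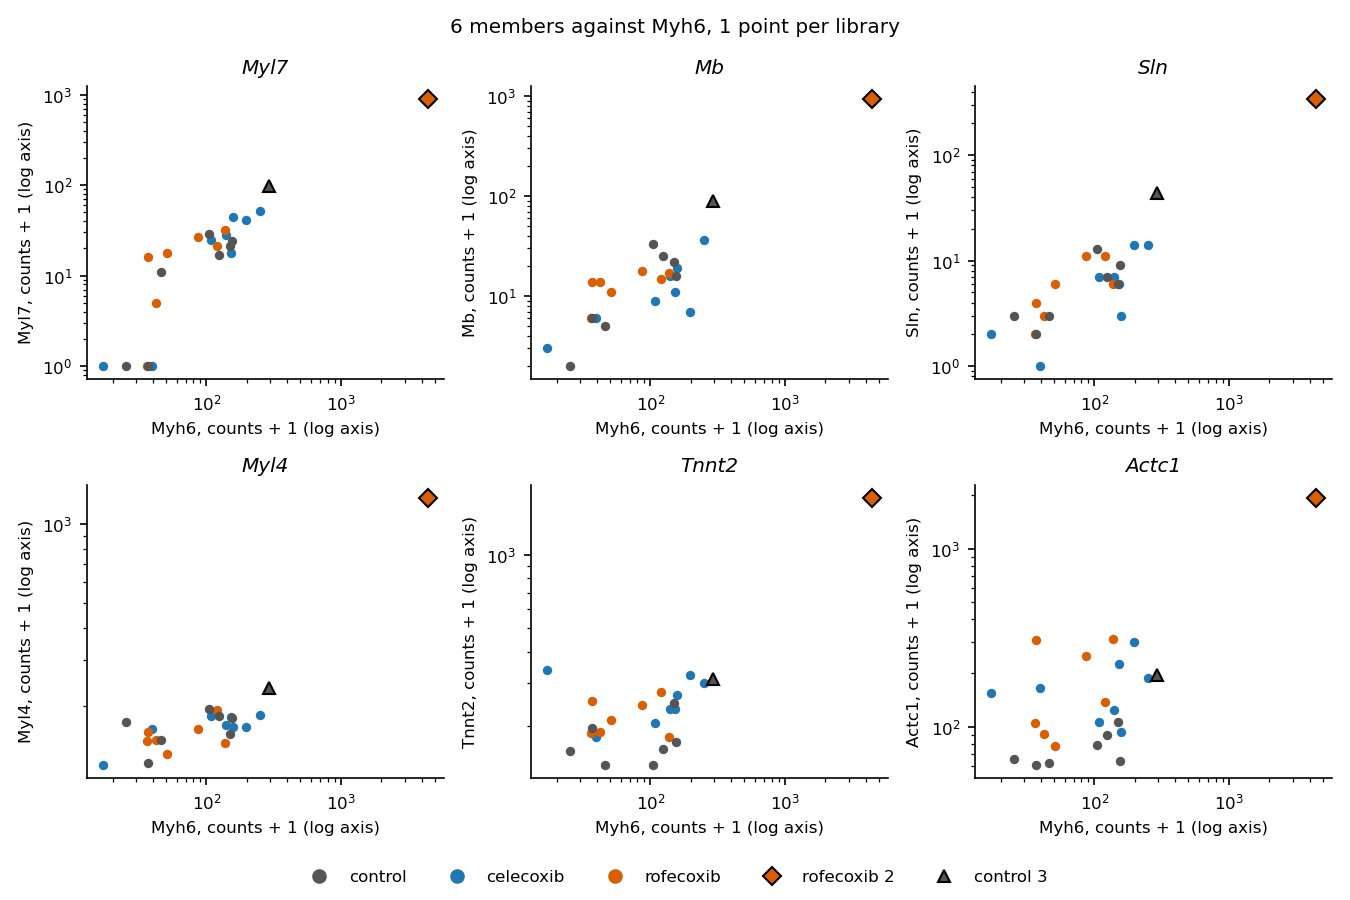
Counts plus 1 of Myl7, Mb, Sln, Myl4, Tnnt2 and Actc1 against Myh6, log axes, 1 point per library coloured by group, with rofecoxib 2 as a diamond and control 3 as a triangle. Myl7 follows Myh6 over the 23 lower libraries (rho 0.87), while Actc1 does not line up with it (rho 0.29).

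Control 3 came next after rofecoxib 2. It was the highest of the other 23 libraries for Mb, Myh6, Tnni3, Myl7, Myl4 and Sln, was among the 3 highest for 9 of the 10 genes, and was at or above their median for all 10. Control 5 lay below the median for all 10. The sum of Mb, Myl7, Myh6, Nppa and Sln, a set picked after the values were seen, was 309 CPM in rofecoxib 2, 24.1 in control 3, 16.1 in celecoxib 7, 12.1 in celecoxib 5 and 1.01 in celecoxib 4, the lowest. Low levels of these genes were thus spread over all 3 groups.

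The proportions between genes in rofecoxib 2 were set beside those in other libraries, with exact 95% binomial intervals that cover counting error only. Myl7 made up 16.7% of the Myl7 and Myh6 counts in rofecoxib 2 (15.7% to 17.7%), 17.1% in celecoxib 7 (13.0% to 21.8%) and 25.1% in control 3 (20.9% to 29.7%). Tnni3 made up 13.0% of the Tnni3 and Myh6 counts in rofecoxib 2 (12.1% to 14.0%), 32.9% in control 3 (28.5% to 37.5%) and 75.0% in celecoxib 4 (62.6% to 85.0%). Tnnt2 made up 27.6% with Myh6 in rofecoxib 2 (26.5% to 28.8%) and 51.3% in control 3 (47.3% to 55.4%). The share of Tnni3 and of Tnnt2 was lower in rofecoxib 2 than in any other library, whereas the share of Myl7 lay within the range of the others.

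Markers of other parts of the heart were read beside the 10 genes, by lists chosen with the data known. Of the 4 ventricular genes, Myl2, the ventricular regulatory light chain, had 0 counts in rofecoxib 2 and 0 to 3 in the others, and Irx4, a ventricular transcription factor, was at 0 in all 24 libraries. Myh7, beta myosin heavy chain, had 12 counts in rofecoxib 2 and 4 to 15 in the others, while Myl3, the ventricular essential light chain, had 58 against 0 to 4. Among 7 atrial genes in the table, the potassium channel genes Kcnj3 and Kcnj5 had 111 and 56 counts in rofecoxib 2 and at most 8 and 7 elsewhere, and Mybphl had 163 against at most 17. Nppb, another natriuretic peptide, had 1 count, and Kcna5 and Corin, the most abundant of the list, had 484 counts beside 105 to 549 and 123 beside 7 to 117. Sbk2 had 4 counts in rofecoxib 2 beside 0 to 5 in the others. Kcnj3, Kcnj5, Nppb and Sbk2 were named after their values were seen.

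Further sarcomere genes differed widely in their ratio. Myom1, Ldb3, Xirp1 and Tcap, the most abundant of the 15 further sarcomere genes in the table, were in rofecoxib 2 at 1.09, 1.001, 1.31 and 1.002 times the median of the other libraries. Mybpc3, cardiac myosin binding protein C, had 259 counts against 2 to 15 elsewhere. Csrp3 had 225 against 0 to 22, and Lmod2 127 against 1 to 8, all chosen after their values were seen. Atp2a2, the calcium pump, and Jph2 stood at 1.10 and 0.936 times the median, whereas Casq2, cardiac calsequestrin, had 317 counts against 14 to 53, and Pln, phospholamban, 875 against 154 to 446, both also named after their values were seen. In all, 14 of the 35 tested genes of the 6 further heart and striated muscle lists were highest in rofecoxib 2, and 11 were at least 2-fold above the median, beside 3.03% and 1.21% of all genes. These shares come from the library the genes were chosen on, and nothing is read from them.

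**Figure D3:**
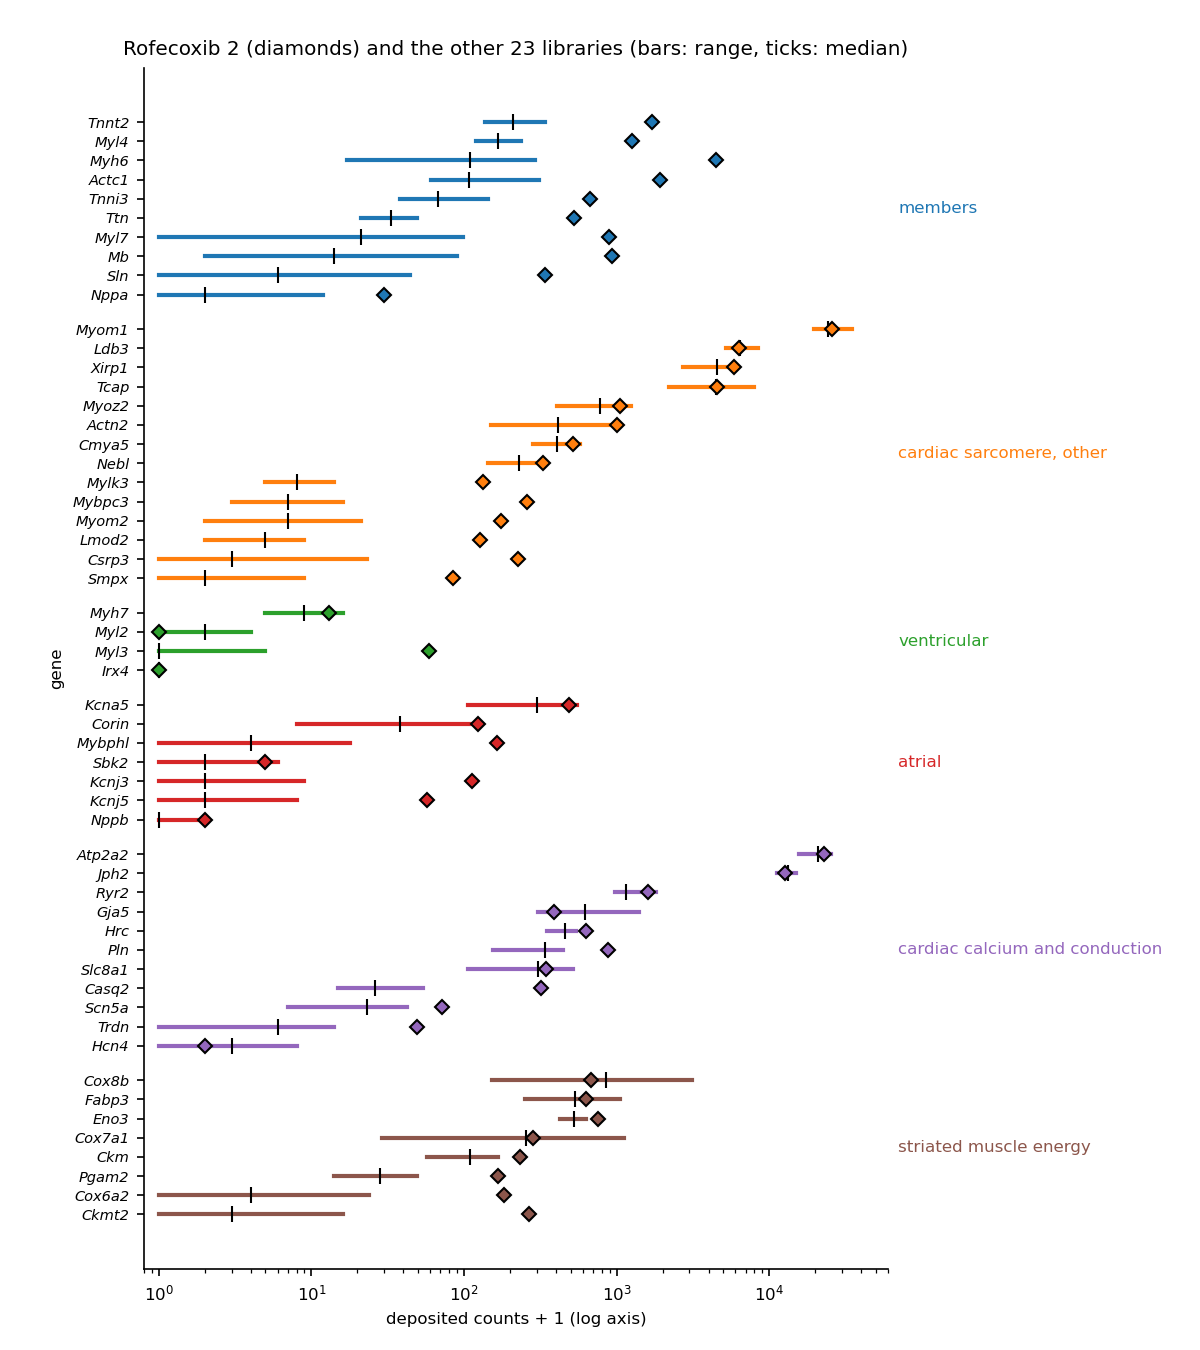
Counts plus 1 on a log axis for the 10 genes and 5 of the 6 further heart and striated muscle lists, without the transcription factors and with 1 sarcomere gene not shown; bars span the other 23 libraries, ticks are their medians and diamonds are rofecoxib 2. The diamonds lie right of the bars for all 10 genes, on the bars for Myom1, Ldb3, Tcap, Atp2a2 and Jph2, and at 0 counts for Myl2 and Irx4.

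Other cell types in rofecoxib 2 were as follows. The 24 skeletal muscle genes summed to 132 CPM, within the 99.3 to 200 CPM of the other libraries. Casq1 alone held 94.5 of these 132 CPM, so the sum says little about the other genes of the list. Of the 24, 3 were highest in rofecoxib 2 and 6 were at least 2-fold above their median. Among these 6, Myh2, Myh8, Atp2a1 and Mybpc1 did not pass the filter on low counts and had 8, 5, 5 and 4 counts there. Over all genes that passed the filter the shares were 3.03% and 1.21%, which are not comparable with lists that hold genes below it. By level the leading genes of that list were Casq1 at 0.784, Mybpc2 at 1.52, Tnnt1 at 1.25 and Myl1 at 3.31 times the median, while Myh4, Pvalb, Myod1 and Myf6, named after their values were seen, had 0 counts in rofecoxib 2 and in most other libraries. The 10 fibroblast and adventitia genes summed to 7031 CPM against 7401 to 11070, and the 9 macrophage genes to 98.4 CPM against 111 to 287, both below every other library. The 10 mesothelium and epicardium genes summed to 163 CPM against 88.6 to 180, and Tbx18 alone held 148 of the 163 CPM. Of the 10, 4 were highest in rofecoxib 2 and 6 were at least 2-fold above their median, and those 6 did not pass the filter on low counts. Msln had 64 counts against 0 to 16 and Upk3b 69 against 0 to 34, both named after their values were seen, while Tbx18 and Krt18, the most abundant of the list, were at 1.26 and 0.700 times the median. The brown adipocyte sum was 226 CPM, within 100 to 1515. The part of these cell types in the cardiac values was not tested.

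By the fixed measure of likeness, genes outside the 10 that were most like their mean log2 CPM over 24 libraries included Mylk3 (Pearson r 0.851), Fndc5 (0.849), Casq2 (0.831), Nts (0.695) and Pgam2 (0.68). Mylk3 encodes cardiac myosin light chain kinase, Casq2 a calcium-binding protein of the sarcoplasmic reticulum, Fndc5 encodes the precursor of irisin and Nts encodes neurotensin. Over the 23 libraries without rofecoxib 2, the 6 highest by Spearman's rho were other genes, led by Siglecg (0.628), 1700021C14Rik (0.601) and Fn3krp (0.601). There, Fndc5 had a rho of 0.563, Nts 0.404, Mylk3 0.381, Casq2 0.379 and Pgam2 0.199.

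Of the 8 tested among the 10 genes, Actc1 had the largest positive difference from control in both drug groups when rofecoxib 2 was left out, and edgeR called none of the 8 in any of the 3 comparisons. A gene was called at an adjusted p under 0.05 in edgeR's quasi-likelihood test, with p-values adjusted by Benjamini-Hochberg over all genes tested. For celecoxib against control, 0 of 8 genes were called by edgeR and 0 by DESeq2, and 2 had an unadjusted p under 0.05. Over all genes edgeR called 1.15%, DESeq2 called 3.18%, and 17.1% had an unadjusted p under 0.05. Actc1 was 0.93 ± 0.32 log2 higher (SE, 8 against 8 libraries; edgeR adjusted p = 0.144) and Tnnt2 0.49 ± 0.16 higher (edgeR adjusted p = 0.132). Mb was at -0.92 ± 0.58 (edgeR adjusted p = 0.421), and the other 5 lay between -0.14 for Tnni3 and 0.21 for Myh6. The median over the 8 was 0.06 log2, beside -0.01 over all genes.

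For rofecoxib against control with 7 against 8 libraries, 0 of 8 genes were called by edgeR and 1 had an unadjusted p under 0.05, while edgeR called 2.76% of all genes and 24.8% had an unadjusted p under 0.05. The gene was Actc1, at 1.02 ± 0.33 log2 (edgeR adjusted p = 0.0779). DESeq2 called Actc1 alone (1.01 log2, DESeq2 adjusted p = 0.0291) and called 9.63% of all genes. Actc1 was also called by edgeR without control 3, the control library highest for it, at 1.28 log2 (edgeR adjusted p = 0.0475), and its edgeR adjusted p ran from 0.0475 to 0.178 over the alternatives fitted with edgeR. Ttn was at 0.32 ± 0.17 and Tnnt2 at 0.22 ± 0.17, whereas Mb was at -0.91 ± 0.60, Myh6 at -0.69 ± 0.52 and Myl7 at -0.59 ± 0.81, and none of these 5 was called. The median over the 8 was -0.25 log2, beside 0.00 over all genes. In the same fit Acta2 was 0.30 log2 higher in celecoxib (edgeR adjusted p = 0.0459) and 0.28 higher in rofecoxib (edgeR adjusted p = 0.0491). Actg2, another smooth muscle actin named after its values were seen, was 0.475 higher in celecoxib (edgeR adjusted p = 0.01). In rofecoxib it was 0.299 higher (edgeR adjusted p = 0.0537). The part of other actins in the Actc1 differences was not tested.

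For celecoxib against rofecoxib, at unequal doses and with 8 against 7 libraries, 0 of 8 genes were called by edgeR and 0 by DESeq2, and 0 had an unadjusted p under 0.05. Over all genes these shares were 19.1%, 23.7% and 34.1%. Actc1 differed by -0.08 ± 0.33 log2 and Mb by -0.01 ± 0.63, and the widest difference was 0.90 ± 0.52 for Myh6 (edgeR adjusted p = 0.225). Errors of this size do not show that the treatments act alike on these genes. The comparisons of each drug with control use the same control libraries, so that Actc1 higher in both is not seen in separate samples. In the sample titles the control libraries also carry numbers apart from those of both drug groups. What these numbers stand for is not known here, and the labels give 3 days of library construction. If the numbers mark a batch, it cannot be told apart from drug against control, and this was not tested.

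Of 35 tested genes in the 6 further heart and striated muscle lists, edgeR called Myom1 in celecoxib against control (0.41 log2, adjusted p = 0.0307) and Ryr2, the calcium release channel of the sarcoplasmic reticulum, in rofecoxib against control (0.45 log2, adjusted p = 0.0313), both higher with the drug. That is 2.86% of the 35 in each comparison, beside 1.15% and 2.76% of all genes. Both genes are expressed at high counts in every aorta library, Myom1 from 19613 and Ryr2 from 977 counts upward in the 23. Between the drugs, edgeR called 14.3% of the 35, below the 19.1% of all genes, with Ldb3 and Eno3 higher and Nebl, Slc8a1 and Tbx20 lower in celecoxib; those 5 genes were named because they passed.

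With rofecoxib 2 included, the fits describe that library. In rofecoxib against control all 8 fold changes were above 0, from 0.76 ± 0.39 log2 for Myl4 to 2.44 ± 0.94 for Myh6, and Mb, Myh6, Tnni3, Myl7 and Myl4, which were below 0 without the library, were above 0 with it. The call of edgeR was Actc1 (2.16 ± 0.56 log2, adjusted p = 0.0333), while 5.3% of all genes were called. In celecoxib against rofecoxib all 8 were below 0, and edgeR called Mb (-3.34 ± 1.07, adjusted p = 0.0285) and Ttn (-1.70 ± 0.53, adjusted p = 0.0266), with 22.7% of all genes called. Without that library Mb was at -0.01 and Ttn at -0.28 ± 0.17. In celecoxib against control, which uses rofecoxib 2 only for the spread, edgeR and DESeq2 called 0 of 8 and 0 had an unadjusted p under 0.05, beside 1.41%, 3.34% and 17.3% of all genes. Actc1 was there at 0.94 and Mb at -0.92 log2, with an SE of 0.56 in place of 0.32 for Actc1 and of 1.11 in place of 0.58 for Mb. In the fit of all 24 libraries, DESeq2 replaced the count of rofecoxib 2 for 9 of the 10 genes, all but Actc1, as its default does for extreme counts in groups of 7 or more.

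**Figure D4:**
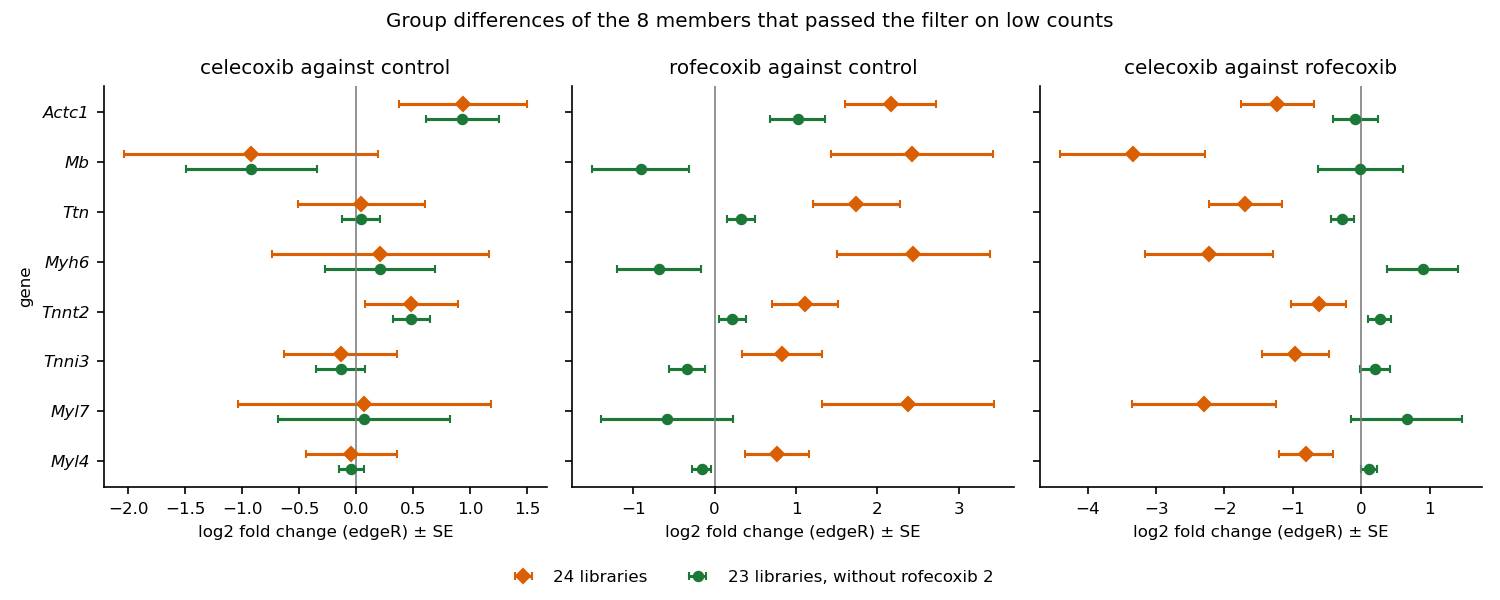
Log2 fold changes ± SE from edgeR for the 8 tested genes in the 3 comparisons, with 24 libraries (diamonds) and with 23, without rofecoxib 2 (circles). In rofecoxib against control, Mb, Myh6, Tnni3, Myl7 and Myl4 lie above 0 with it and below 0 without it, and in celecoxib against control the values stay and only the errors narrow.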

How the data were processed

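PolyA RNA of thoracic aorta was sequenced in 24 libraries. The submitters' processing notes name the mm9 build, STAR 2.5.1b and CASAVA 1.8.2. Counting tool, annotation and strand use: not given in the sources used here. As deposited by the authors, the single table holds whole-number counts per gene. Library totals are nearly equal, from a step before deposit of which nothing is stated; had it scaled the counts, edgeR's model of their spread would not hold.

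Library names are group and replicate number of the titles. The 10 genes, the marker lists and the settings were chosen with earlier results of these data known. Named genes were the 10, up to 4 of each list by level, with list genes at 0 counts in most libraries given by count only, and the 6 most alike by each of 2 measures; exceptions are stated, and some genes are not reported here. Tests used edgeR 4.0.16 under R 4.3.3 (filterByExpr, TMM, robust quasi-likelihood) with 1 mean per group, on 24 libraries (14451 genes) and on 23 (14515 genes); the steps were tested on simulated data. Dividing a log2 fold change by the root of its F gave the SE. DESeq2 1.42.0, library totals, RLE factors, no filter, a replicate block, a GC offset from GENCODE M21 transcripts and libraries left out were alternatives. Exon lengths also came from GENCODE M21.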

Additional observations from a re-analysis of the deposited data

Results flagged for a closer look

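Each gene's levels were checked in each group for a sample whose gap to its nearest neighbour took up an unusually large part of the group's range (Dixon's test at the 95% level). Of the 20 sets of 8 control or celecoxib levels, 7 held such a sample. Chance gives about 1 in 20 only for normally distributed levels in separate samples. These genes share their libraries, and some have low counts with zeros, so the 7 cannot be set against that rate. In the rofecoxib group rofecoxib 2 was the high sample for all 10 genes, which is how it was chosen, so no count is set against chance there: Actc1 at 89.1 CPM, Mb at 43.1, Ttn at 24.5, Myh6 at 207, Tnnt2 at 79.2, Tnni3 at 31.1, Myl7 at 41.5, Myl4 at 58.4, Nppa at 1.35 and Sln at 15.7 CPM. Control 3 was the high sample of its group for Actc1 at 8.89 CPM, Mb at 4.08, Tnni3 at 6.56, Myl7 at 4.49 and Sln at 1.97 CPM. Celecoxib 4 was the low sample for Myl4 at 5.68 CPM, and celecoxib 2 the high one for Nppa at 0.500 CPM, which is 11 counts.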

How the results depend on the processing

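Without rofecoxib 2, the count of 0 called genes held under each alternative in celecoxib against control and in celecoxib against rofecoxib. In rofecoxib against control it was 1, Actc1, with DESeq2, and 0 to 1 over the libraries left out in turn, with the 1 without control 3. With all 24 libraries, rofecoxib against control called 1 gene, 0 without the filter on low counts, 0 without both control 6 and rofecoxib 2, and 0 to 2 over libraries left out: 0 without rofecoxib 2, 7 or 8 or control 5, 6 or 7, and 2 with Ttn added without rofecoxib 4, 5 or 6. Celecoxib against rofecoxib called 2 genes, 0 with DESeq2, 0 without the filter, 1 with the GC offset, 0 without both control 6 and rofecoxib 2, and 0 to 2 over libraries left out, 0 without rofecoxib 2 and 1 without celecoxib 3 or celecoxib 4. The causes of these shifts were not tested. Fewer libraries were fitted only where some were left out. DESeq2 on all 24 libraries replaced the rofecoxib 2 counts of Mb and Ttn, and in celecoxib against rofecoxib it gave -0.003 log2 for Mb and -0.25 for Ttn.

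Of 24 same-number pairs of libraries, 10 had a correlation over 0.1 (-0.391 to 0.324). Pairs of unlike number were not set beside them, so these values cannot show whether the replicate numbers pair the libraries. With the number as a replicate block, the fits of all libraries called 0 of the 10 genes in rofecoxib against control and 0 in celecoxib against rofecoxib, and without rofecoxib 2 the genes called in rofecoxib against control rose from 401 to 667.

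Of the ratios of rofecoxib 2 to the median of the others, library totals in place of TMM gave 71.3 for Mb, 16.4 for Ttn, 41.2 for Myh6 and 44.5 for Myl7. Against the other 7 rofecoxib libraries the ratios were 14.4 for Actc1, 14.8 for Ttn, 92.1 for Myh6, 54.2 for Myl7 and 8.23 for Myl4. Of 744 refitted log2 fold changes with all libraries, 44 changed sign, 10 of them on leaving out rofecoxib 2, 11 on leaving out both control 6 and rofecoxib 2, and 0 of a called value. Without it, 27 of 696 changed sign, 0 of them called.

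Counts over all genes moved more than 1.5 times. With all libraries, celecoxib against control called 204 genes (477 with DESeq2, 86 without the filter, 42 to 312 with a library left out), rofecoxib against control 766 (1568, 294, 216 with the GC offset, 215 without both control 6 and rofecoxib 2, 170 to 1121) and celecoxib against rofecoxib 3275 (1412 with the GC offset, 2147 to 3739). Without rofecoxib 2 these were 167 (438 with DESeq2, 78 without the filter, 277 with the GC offset, 40 to 261), 401 (1191, 137, 110, 33 to 649) and 2769 (1099 with the GC offset, 1438 to 3314).

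Low counts of Nppa, Sln, Mb and Myl7 limit their precision, and no setting adds counts to them.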

Other observations

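Genes outside the lists were also high in rofecoxib 2; all were chosen after their values were seen and are given as counts with no test. Chrm2, the muscarinic receptor of heart muscle, had 61 counts in rofecoxib 2 and a median of 13 in the other 23 libraries. Mapk10, a stress kinase, had 65 against 5, and Nts 98 against 11. Dbh, which encodes the enzyme that makes noradrenaline, had 54 counts against 13.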
